A study of Mus musculus with 16 samples.

Results

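The step of wild-type mouse testis from postnatal day 15 (P15) to P21 was measured on 4 of the 16 arrays of the series, 2 at each age, which were chosen by their titles alone. All mice were of strain C57BL/6. The P15 wild type and P21 wild type arrays carried RNA of whole testis, so changes in the number of a cell type and changes in RNA per cell cannot be told apart. The titles and age labels give p15 for the younger group while the growth protocol gives p12, and P15 is used here. Emi2 knockout arrays of the same ages (EMI2_ko in the labels, 2 per age) and both genotypes at P30 and P60 served for comparison. The labels do not name the knockout allele and do not tie the 2 arrays of a group to separate animals, so p-values cover only the spread between arrays, which may be technical.

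In the juvenile mouse testis the first cohort of germ cells develops nearly in step. Spermatogonia enter meiosis, pass through a long prophase as spermatocytes, and give rise after the meiotic divisions to haploid round spermatids, while Sertoli cells, which nurse the germ cells, make up a falling share of the tissue. Around P15 the most advanced germ cells are spermatocytes, and near P21 the first round spermatids appear. Emi2 restrains the ubiquitin ligase that lets cells leave M phase.

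On these Illumina bead arrays each probe is a short oligonucleotide whose brightness is averaged over many beads. Of 25689 regular probes, 13723 and 14331 were detected on the P15 arrays and 14508 and 14498 on the P21 arrays (detection p under 0.05). Replicate arrays differed by a root-mean-square log2 difference of 0.191 at P15 and 0.314 at P21, and arrays of different age by 0.775 to 0.963. Annotated gene names did not go with the levels. The list for ribosomal proteins, present in every cell, took symbols starting Rpl or Rps and a digit, a form other genes can share. Of its 79 probes, 37 had a detected signal on both P21 arrays (46.8%, with a Clopper-Pearson exact interval at 95% of 35.5% to 58.4%). For probes named for olfactory receptors it was 629 of 1154 (54.5%), and for all regular probes 52.5%. The share was 38.9% of 18 probes named for spermatid genes, 76.9% of 13 for spermatocyte genes, 30% of 10 for early germ cell genes, 27.3% of 11 for Sertoli cell genes, 50% of 8 for Leydig cell genes, 69.2% of 13 for peritubular, vessel and stroma genes and 53.3% of 15 for leukocyte genes. Neither the tissue label nor the loss of Emi2 could therefore be checked by probe names, and probe identifiers below are row labels with no gene attached.

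The transcript profile changed widely between P15 and P21. Of 17355 tested probes, 2678 (15.4%) rose and 4478 (25.8%) fell, together 41.2%, by limma's moderated test at an adjusted p under 0.05. More probes fell than rose, but the large changes were nearly all rises. A rise of at least 4-fold was called for 606 probes (3.49%) and a fall of that size for 26 (0.15%). Those falls numbered 16 without P21 wild type replicate 1, 41 without P15 wild type replicate 2 and 48 without P21 wild type replicate 2. At 16-fold or more there were 124 rises (0.714%) and 0 falls. The median log2 change was 1.05 among the called rises and -0.70 among the called falls, against -0.08 over all tested probes. On values corrected for background signal the 4-fold counts were 1073 and 149 and the 16-fold counts 373 and 3.

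At the 2-fold threshold, which direction had more calls depended on the background correction and on the detection filter. At 2-fold or more, 1419 probes rose (8.18%) and 1000 fell (5.76%) on the deposited scale, so that 58.7% were rises. After background correction 2125 rose and 2469 fell, and 46.3% were rises. On the deposited scale, among probes detected on all 4 arrays of the wild-type step, 953 rose and 995 fell, and 48.9% were rises. The deposited values keep the background in every signal, which compresses the fold change of dim probes. Without P21 wild type replicate 1 the count of falls of any size was 2697 and the count of rises 1851.

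**Figure D1:**
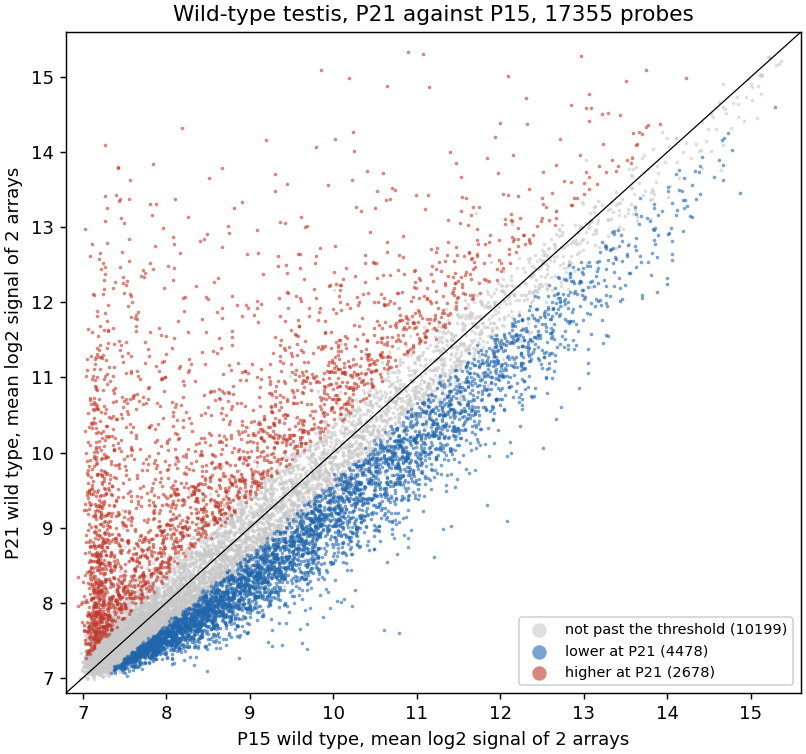
Mean log2 signal of each tested probe at P15 (x axis) and P21 (y axis) in wild-type testis, 2 arrays per age; red points rose and blue points fell (limma adjusted p under 0.05), and the line marks equal values. The 2678 rises reach far above the line, many from the left edge where P15 signals lie at background, whereas the 4478 falls form a narrow band below it.

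The probes with the largest rises among those detected on all 4 arrays went from dim to bright signals. ILMN_1217767 had log2 signals of 7.41 and 7.44 at P15 and 14.06 and 13.53 at P21 (replicates 1 and 2), an 82.4-fold rise (log2 change 6.36, SE 0.33, limma adjusted p = 9.68e-08). In unnormalized brightness this was 131.7 and 144.6 at P15 against 17839.1 and 9560.5 at P21. Both P21 values lay far above both P15 values. ILMN_2960700 measured 7.89 and 8.49 at P15 and 14.35 and 14.30 at P21 (log2 change 6.14, SE 0.25, limma adjusted p = 2.45e-08). ILMN_1225334 measured 7.46 and 7.51 at P15 and 13.35 and 12.76 at P21 (log2 change 5.57, SE 0.18, limma adjusted p = 9.26e-09). The 8 largest such rises, which also include ILMN_2908065, ILMN_1223979, ILMN_3162820, ILMN_1215595 and ILMN_2658704, spanned 43.5-fold to 82.4-fold. Their P15 signals ran from 7.39 to 8.49 and their P21 signals from 12.76 to 14.35. With background correction the same 8 changes were 6.57 to 8.24 on the log2 scale.

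At the later ages those 8 probes stayed bright. At P30 they ran from 13.05 to 14.56 and at P60 from 12.91 to 14.66 in wild type. ILMN_1217767, for example, was 13.79 and 14.00 at P30 and 13.97 on both P60 arrays. None of the 8 passed the test of P60 against P30, in which 1 of 17355 probes was higher at P60 (0.00576%) and 0 lower, with 1863 at an unadjusted p under 0.05 and 19 called with background correction.

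A second group of rises started from signals not above background. At P15, 565 of the risen probes were detected on neither array and at P21 on both. Among all tested probes, 912 had this pattern, of which 347 were not called. For the 565 called probes the fold is a lower bound. It sets the mean P21 signal against the higher of the probe's own P15 signal and the dimmest detected signal of each P15 array. This bound was 2-fold or more for 299 probes, 4-fold or more for 154 and 16-fold or more for 25. ILMN_3133085 read 7.31 and 7.26 at P15 (detection p 0.0952 and 0.124) and 13.58 and 12.95 at P21, at least 60.6-fold higher (limma adjusted p = 2.45e-08). ILMN_2598083 read 7.03 ± 0.03 (SD, n = 2) at P15, then 13.10 and 12.87, at least 49.8-fold higher (limma adjusted p = 2.11e-08). The other 4 of the 6 largest bounds, ILMN_3139668, ILMN_2611098, ILMN_1247397 and ILMN_3152486, were at least 38.8-fold to 43.6-fold higher. All 6 were brighter on P21 replicate 1 than on replicate 2.

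As a group the 565 probes had higher median signals at each later age. Their median log2 signal was 7.16 on both P15 arrays, 8.59 and 8.29 at P21, 9.54 and 10.05 at P30, and 10.17 and 10.15 at P60. At P30, 547 of the 565 were detected on both arrays, and at P60 544. Of all regular probes, the P30 wild-type arrays detected 53.5% and 52.9%, and the P60 wild-type arrays 51.3% and 52.0%. Since the probes were picked on the P15 and P21 arrays, the P30 and P60 levels are the ones the choice did not use.

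**Figure D2:**
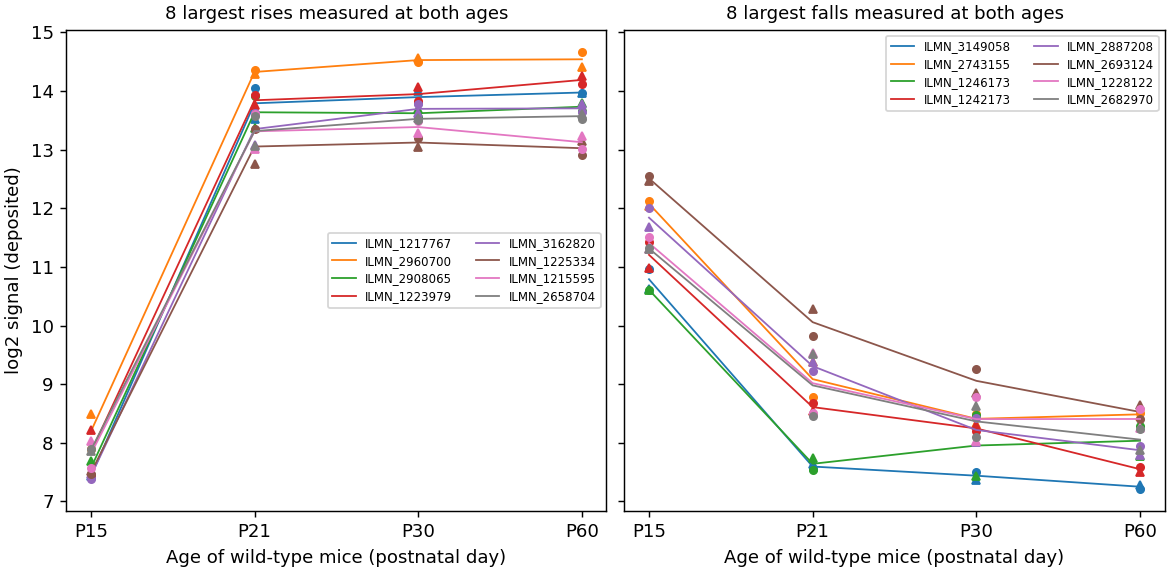
Log2 signal in wild-type testis at P15, P21, P30 and P60 for the 8 largest rises (left) and the 8 largest falls (right) among probes detected on all 4 P15 and P21 arrays; circles are replicate 1, triangles replicate 2, lines join the means. The rises lie between 12.76 and 14.35 at P21 and change little afterwards, whereas the falls lie between 7.54 and 10.29 at P21 and most are lower again at P60.

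The falls were smaller in size. ILMN_3149058 had log2 signals of 10.96 and 10.62 at P15 and 7.55 and 7.64 at P21, a change of -3.20 (SE 0.13, limma adjusted p = 2.45e-08) and 9.16-fold less. ILMN_2743155 measured 12.12 and 12.04 at P15 and 8.79 and 9.39 at P21 (change -2.99, SE 0.29, limma adjusted p = 1.33e-05). ILMN_2693124, bright at P15 with 12.55 and 12.47, measured 9.83 and 10.29 at P21 (change -2.45, SE 0.23, limma adjusted p = 9.88e-06). In each of these the P21 arrays lay below both P15 arrays. The 8 largest falls measured at both ages, with ILMN_1246173, ILMN_1242173, ILMN_2887208, ILMN_1228122 and ILMN_2682970, spanned 5.04-fold to 9.16-fold, with adjusted p of at most 0.00101. ILMN_2693124 went on to 9.26 and 8.85 at P30 and 8.41 and 8.64 at P60.

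Few of the fallen probes went from detected to undetected. Of the fallen probes, 4177 were detected on both arrays at both ages. Another 157 were detected on both P15 arrays and neither P21 array, and 9 on 1 P15 array and neither P21 array. Among all tested probes, 427 were detected on both P15 arrays and neither P21 array, of which 270 were not called. The 157 were dim before the fall, with a median log2 signal of 7.59 and 7.58 on the P15 arrays, so that only 2 had a bound of 2-fold or more. ILMN_2633215 read 8.73 and 8.25 at P15 and 7.15 and 7.03 at P21, at least 2.25-fold lower (limma adjusted p = 1.28e-05). ILMN_2518546 read 8.34 and 8.32, then 7.19 and 7.15, at least 2.02-fold lower (limma adjusted p = 1.11e-06). ILMN_1228211, ILMN_1248206, ILMN_3160653 and ILMN_2754027 followed with bounds of 1.68 to 1.85. At P60, 134 of the 157 were detected on neither wild-type array, while those arrays detected 51.3% and 52.0% of all regular probes.

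Calls were spread unevenly over probe brightness. When the tested probes were ranked by mean log2 signal over all 16 arrays and cut into 4 equal parts, the share that rose was 1.06%, 9.13%, 22.1% and 29.4% from the dimmest to the brightest part. The share that fell was 6.48%, 27.8%, 35.5% and 33.4%. Of the 606 rises of at least 4-fold, 410 were in the brightest part and 192 in the next, though the mean includes the arrays on which they rose. In background-corrected brightness, the risen probes carried 11.4% and 12.1% of all signal on the P15 arrays and 40.7% and 33.03% on the P21 arrays. For the fallen probes these shares were 45.5% and 44.7%, then 21.3% and 26.3%. These shares describe the lists, which were drawn from the same arrays.

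The 2 P21 arrays did not stand at the same place in the step. Replicate 1 lay further from P15 than replicate 2 for 2348 (87.7%) of the risen probes and 3387 (75.6%) of the fallen ones. The median change from the P15 mean was 1.23 on replicate 1 and 0.90 on replicate 2 for the rises, and -0.78 and -0.62 for the falls. On a straight line drawn through all tested probes from the wild-type P15 mean (0) to the P60 mean (1), P21 replicate 1 stood at 0.588 and replicate 2 at 0.476. The P30 arrays stood at 0.813 and 0.962. Replicate 1 also had the higher median signal before normalization, 181.3 against 150.5, and the part of this in the array difference was not tested. Leaving out replicate 2 gave 6745 calls and leaving out replicate 1 gave 4548, against 7156 with both. The P21 knockout arrays stood in the same order on the line, replicate 1 at 0.406 and replicate 2 at 0.275. Across tested probes, the replicate differences of the 2 P21 groups had a correlation of 0.608. What they share was not tested.

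**Figure D3:**
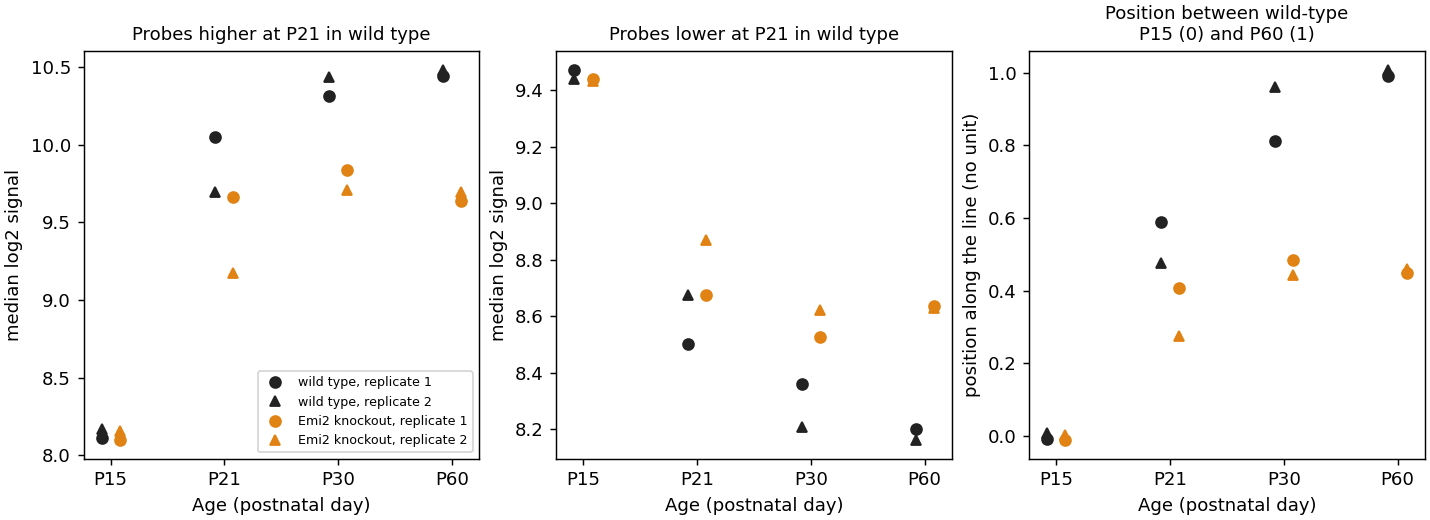
Each of the 16 arrays by age: median log2 signal of the 2678 probes that rose (left) and the 4478 that fell (middle) in wild type from P15 to P21, and position between the wild-type P15 mean and P60 mean (right); black wild type, orange Emi2 knockout, circles replicate 1, triangles replicate 2. P21 wild type replicate 1 stands at 0.588 and replicate 2 at 0.476, and the knockout arrays stay between 0.275 and 0.483 from P21 on.

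Many of the probes that changed in wild type also changed in knockout testis, measured on separate arrays. In knockout 2334 probes rose (13.4%) and 3353 fell (19.3%) from P15 to P21. Of the wild-type rises 1697 also rose in knockout, 63.4% of the wild-type list and 72.7% of the knockout list. Of the wild-type falls 2884 also fell in knockout, 64.4% and 86.0% of the lists. In the opposite direction went 20 of the rises and 7 of the falls. Both tests of a probe used 1 shared estimate of its spread, which favours overlap. The replicate differences of P21 wild type and P21 knockout were also correlated (0.608 across probes). The 2 steps may therefore not be independent measurements. With only the arrays of the compared groups in the fit, 1327 rises and 1701 falls were shared. At P15 itself 0 of 17355 probes differed between the genotypes in the limma test, with 195 at an unadjusted p under 0.05 and 2 called with background correction. Leaving out P21 Emi2 knockout replicate 1 took the number of knockout calls from 5687 to 2983, and the shared falls from 2884 to 1508.

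By size of the wild-type rise, the share also called as a rise in knockout was 52.3% of 1259 probes under 2-fold, 69.0% of 813 from 2-fold to 4-fold, 76.1% of 482 from 4-fold to 16-fold and 89.5% of 124 at 16-fold or more. In the same order, the step was more positive in wild type for 2.46%, 14.9%, 29.9% and 21.8% by the direct limma test. Over all tested probes that share was 1.92%. The size classes were drawn by the wild-type step itself, which enters that difference. Among the falls, the share also called as a fall in knockout was 55.8% of 3478 under 2-fold and 94.0% of 974 from 2-fold to 4-fold. It was 100% of 26 from 4-fold to 16-fold. A larger change is easier to call in either genotype. The shares were not tested against each other. ILMN_1223979 measured 7.45 and 8.22 in wild type and 7.28 and 7.66 in knockout at P15, and 13.93 and 13.76 against 14.39 and 13.75 at P21. Its steps of 6.01 and 6.60 on the log2 scale did not pass the test of their difference (limma adjusted p = 0.645). All 8 of the named falls fell in knockout too. ILMN_3149058, for instance, measured 10.93 and 11.02 at P15 and 7.99 and 8.23 at P21 in knockout, a change of -2.86 (limma adjusted p = 1.45e-07).

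Where the steps differed between the genotypes, it was mostly in rises that were larger in wild type. The direct limma test of the difference passed for 371 of 17355 probes (2.14%), of which 333 (1.92%) had a more positive step in wild type and 38 (0.219%) a more negative one. Of the 333, 323 rose in wild type, whereas 56 rose, 29 fell and 248 did not pass in knockout. Many of their signals lay at background. In wild type 162 of the 333 were detected on neither P15 array, and all on both P21 arrays. In knockout 163 were detected on neither P15 array and 133 on neither P21 array. A step between signals at background is not a measured change in level. The median log2 step of the 333 was 2.07 in wild type and 0.02 in knockout. Both medians follow in part from the choice of the list, which used the difference of these same steps. The total of 371 ranged from 218 without P15 wild type replicate 2 to 477 without P21 wild type replicate 2. It was also over 1.5 times lower without P15 wild type replicate 1 (226), P21 wild type replicate 1 (235), P15 Emi2 knockout replicate 1 (238) or P15 Emi2 knockout replicate 2 (241).

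ILMN_1225334, described above, did not pass in knockout, with 7.61 and 7.41 at P15 and 7.78 and 7.50 at P21, and its steps differed by 5.44 on the log2 scale (SE 0.25, limma adjusted p = 7.54e-07). ILMN_2928453 measured 7.44 and 7.51, then 12.64 and 12.02 in wild type, against 7.51 and 7.53, then 8.02 and 7.75 in knockout (difference 4.50, limma adjusted p = 5.49e-06). ILMN_1217767 rose in both genotypes, but in knockout only to 9.92 and 8.92 (difference 4.34, limma adjusted p = 0.000238). ILMN_2463259 completed the 4 largest among the probes detected on all 4 arrays of a genotype, at 11.63 and 11.26 in P21 wild type and 7.38 and 7.41 in P21 knockout. ILMN_3152486, not detected at P15 in wild type, had a fitted difference of 5.45 (limma adjusted p = 5.53e-07).

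The 38 probes in the other direction moved less. ILMN_2812824 fell in wild type from 8.87 and 8.91 to 7.98 and 7.97, and rose in knockout from 8.93 and 8.72 to 10.08 and 9.36 (difference -1.81, limma adjusted p = 0.00282). ILMN_2741629, ILMN_1243711 and ILMN_3036678 had differences of -1.68, -1.64 and -1.61. Of these, ILMN_1243711 and ILMN_3036678 did not pass in the wild-type step (limma adjusted p = 0.117 and 0.152). The number of probes in this direction rested on single arrays. It was 105 when P21 Emi2 knockout replicate 2 was left out, 10 or 13 when P15 wild type replicate 2 or 1 was, 12 for P21 wild type replicate 1, and 15 or 21 for P15 Emi2 knockout replicate 1 or 2. With only the compared arrays in the fit it was 17.

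**Figure D4:**
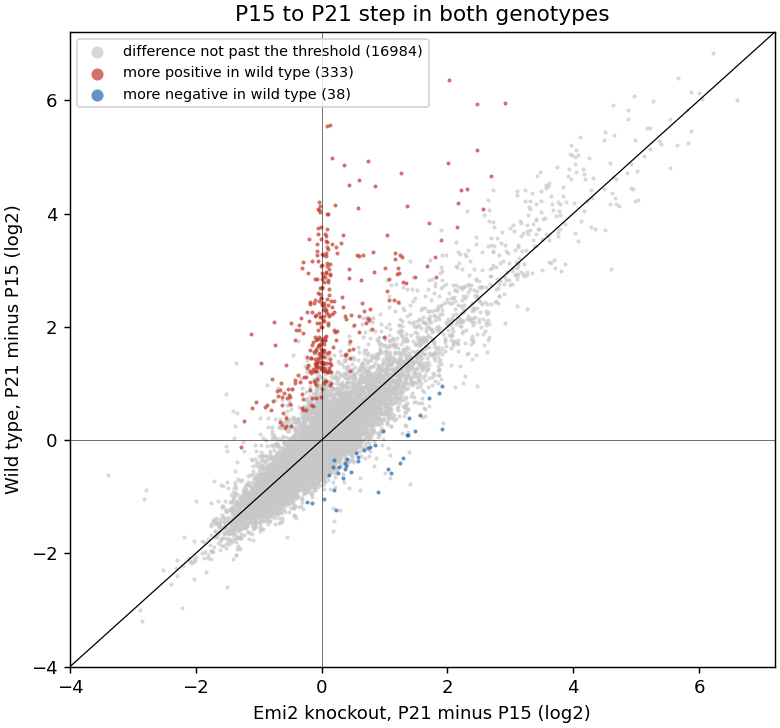
Log2 change from P15 to P21 of each tested probe in Emi2 knockout (x axis) and wild type (y axis), each from 2 arrays per age; coloured points passed the limma test of the difference between the steps, and the line marks equal steps. Most probes lie near the line, and many of the 333 red points stand near 0 on the knockout axis with wild-type changes of up to 5.57.

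The P30 and P60 arrays are not part of the wild-type difference itself, though they entered the normalization, the detection filter and the estimate of spread. At P30, 841 of the 2678 wild-type rises (31.4%) were lower in knockout than in wild type, against 10.4% of all tested probes. At P60 it was 1054 (39.4%), against 14.5%. Higher in knockout were 310 of the rises (11.6%) at P30, against 14.5% of all tested probes, and 356 (13.3%) at P60, against 27.3%. Among the 1259 rises under 2-fold, 16.7% were higher and 24.5% lower in knockout at P30. At P60 18.6% were higher and 32.3% lower. The shares over all tested probes include dim probes, few of which were called in the wild-type step. They were not matched for brightness, and its part in these contrasts was not tested. Of the 4478 falls, 901 (20.1%) were higher in knockout at P30, against 14.5% of all probes, and 2216 (49.5%) at P60, against 27.3%. At P30 this was 21.7% of 3478 falls under 2-fold, but 14.7% of 974 from 2-fold to 4-fold, near the share over all probes. Of the 26 larger falls it was 19.2%. At P60 the shares were 47.1%, 58.0% and 46.2% in the same order. Lower in knockout were 123 falls (2.75%) at P30, against 10.4%, and 169 (3.77%) at P60, against 14.5%. The count of 901 depended on single arrays and was 333 without P30 wild type replicate 2, 478 without P30 Emi2 knockout replicate 2, and 557, 565 and 558 without P15 wild type replicate 1, P15 wild type replicate 2 or P21 wild type replicate 1. For P60, 1357 falls were higher without P21 wild type replicate 1 and 1406 without P60 wild type replicate 2.

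The probes whose step differed between the genotypes mostly kept that difference on the later arrays. Of the 333 with a more positive wild-type step, 327 (98.2%) were lower in knockout at P30 and 324 (97.3%) at P60. Over all tested probes those shares were 10.4% and 14.5%. Of the 38 with a more negative one, 33 (86.8%) were higher in knockout at P30 and 31 (81.6%) at P60. Over all tested probes 14.5% and 27.3% were higher. The median log2 signal of the 333 in wild type was 11.31 and 11.65 at P30 and 11.79 and 11.78 at P60. In knockout it was 7.64 and 7.73, then 7.69 and 7.69, where 97 of the 333 were detected on neither array at P30 and 91 at P60. ILMN_2463259 measured 12.96 and 13.38 at P30 and 13.59 and 13.63 at P60 in wild type, while knockout stayed between 7.72 and 8.12.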

How the data were processed

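RNA of 16 whole-testis samples was measured on Illumina bead arrays. The signal intensity of each probe was deposited with no normalization, per the file headers, beside a detection p-value, per the file headers, which in the regular probes rises with signal and was read as 1 minus p. The authors also deposited normalized log2 values. Quantile normalization of the log2 intensities over all 26511 rows, with no background correction, gave those values to within 0.00276, so their scale and direction are known and genes were not centred. Limma is listed, with no version, in the submitters' processing notes.

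The 822 control rows (identifier numbers 1343048 to 2038782) were left out. Tested were 17355 of 25689 regular probes, those with a detection p under 0.05 on at least 2 of 16 arrays, so a probe may have been kept for its signal at 1 age only. One symbol is annotated for 24272 regular probes and none for 1417. The deposited log2 values were fitted over 8 group means with limma 3.58.1 in R 4.3.3 (8 residual and 3.55 prior degrees of freedom), and each adjusted p is by the Benjamini-Hochberg method over all tested probes. The code was tested on simulated data. Background correction used the normexp model with parameters from the detection p-values and an offset of 16, then quantile normalization. A probe is called not above background in a group where its detection p was 0.05 or more on every array. Other alternatives were an offset of 50, 75th percentile scaling, other filters, fewer arrays, a variance trend, 1 probe per symbol, a replicate term and leaving out each array. With an array left out, the lone array of its group is assumed to vary like the others.

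Probes were named by a rule: the 8 largest rises and 8 largest falls detected on all 4 arrays, the 6 largest bounds each way for probes detected at 1 age only, and the 4 largest differences of the steps each way among probes detected on all 4 arrays of a genotype. The comparisons, lists and rule were chosen with earlier results of these data known. The number of arrays limits the precision. No scan date or slide was used here, so such batches were not tested.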

Additional observations from a re-analysis of the deposited data

Results flagged for a closer look

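The P15 to P21 step differed between wild type and Emi2 knockout for 371 probes by the direct limma test of the difference between the genotypes. Among the 4 largest each way of the probes detected on all 4 arrays of a genotype, the wild-type step exceeded the knockout step by a log2 difference of 5.44 for ILMN_1225334, 4.50 for ILMN_2928453, 4.34 for ILMN_1217767 and 4.13 for ILMN_2463259. The wild-type step was the lower one for ILMN_2812824 (-1.81), ILMN_2741629 (-1.68), ILMN_1243711 (-1.64) and ILMN_3036678 (-1.61).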

How the results depend on the processing

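The 7156 wild-type calls were 7304 with normexp background correction, and 2554 of the 2678 rises and 4174 of the 4478 falls were called under both, with 0 in opposite directions. The median log2 change over all tested probes was -0.17 then, -0.15 with 75th percentile scaling and -0.20 with the filter for detection on all 4 arrays, against -0.08. That filter left 11981 tested probes, of which 953 rose and 995 fell by at least 2-fold and 357 rose by at least 4-fold. The difference of the steps was then called for 124 probes, and 403 and 567 rises were lower in knockout at P30 and P60. Falls higher in knockout numbered 898 and 2247 under the same filter, which leaves out probes not detected at P15. The cause of these shifts was not tested. With only the arrays of the groups compared, the knockout step had 3426 calls and 318 falls were higher in knockout at P30, and the cause was not tested. With an offset of 50, 1751 probes fell by at least 2-fold.

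Leaving out each array in turn, the wild-type step had 4548 to 6745 calls, with 1851 to 2688 rises and 2697 to 4057 falls. The knockout step had 2983 to 6067 and the difference of the steps 218 to 477. Rises lower in knockout numbered 636 to 915 at P30 and 787 to 1098 at P60, and falls higher in knockout 333 to 1108 and 1357 to 2170. With the replicate block the wild-type step had 7119 calls, the knockout step 5637 and the difference of the steps 345, and no call of a named probe changed. The block was a single term shared by all arrays, so it cannot take up a replicate difference confined to a single age. The replicate numbers were not taken as pairs, since the deviations of P15 and P21 wild type had a correlation of -0.00885 across probes, although those of P21 wild type and P21 knockout had 0.608. Each of the 36 named results kept its direction and its side of the threshold under every alternative that tested it, 480 values in all.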
